A study of Saccharomyces cerevisiae with 4 samples.

Results

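This account covers 10 genes of budding yeast (Saccharomyces cerevisiae) that make or break down polyphosphate, carry phosphate across membranes or adjust that transport. They are VTC1, VTC2, VTC3 and VTC4 of polyphosphate synthesis, PPX1 and PPN1 of polyphosphate breakdown, the carrier genes PHO84, PHO89 and PHO90, and SPL2. The genes were chosen by their symbols in the platform annotation, with log2 ratios of these same arrays already known. Their ratios are therefore given as a description. They make up 10 of the 5539 genes with a named spot and 20 of the 12800 spots, 2 spots for each gene, and none of the 20 spots lacked a value on any of the 4 arrays.

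The study compared transcript levels after 2 h with Congo red, a dye that binds polysaccharides of the cell wall, with those of the other part of the same divided culture, which received none. Both parts were strain BY4741, a haploid of mating type a, widely used in the laboratory, that lacks URA3, MET17, LEU2 and HIS3, so these deletions were shared by treated and untreated cells. Cells grew in rich YEPD medium at 24 °C, and Congo red was added to 30 µg/ml. Each of 4 2-colour arrays, numbered 1 to 4, held treated and untreated total RNA, with the treated RNA in channel 2 for arrays 1 and 3 but in channel 1 for arrays 2 and 4. Whether separate cultures lie behind the arrays is not in the labels, and p-values therefore rest on a spread between arrays that may be technical.

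Polyphosphate is a chain of phosphate units that yeast stores mainly in the vacuole. The VTC complex in the vacuolar membrane builds the chain and moves it inside, and polyphosphatases cut it back to phosphate. When phosphate is scarce, the transcription factor Pho4 turns on genes of uptake, storage and recovery of phosphate, the phosphate (PHO) regulon, to which PHO84, SPL2 and VTC genes belong.

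All values are log2 ratios of treated over untreated RNA after each array was set to a median of 0, so a value of 1 is a doubling and -1 a halving relative to the middle spot. They are changes, not levels: a ratio does not tell how abundant a transcript was, and the strain could not be checked by markers because both channels held the same strain. That the ratios run as treated over untreated on all arrays is likely and not settled, since no dye or direction is given in the sources used here. The basis is that 7 tested markers of the cell wall stress response, known to be induced by Congo red, were above 0 on all 4 arrays. Their means ran from 1.37 to 3.04. The markers too were listed with earlier results of these data known, which weakens this basis. An additional marker, SLT2, had values on arrays 2 and 4 alone and was not tested. Across genes, arrays of opposite channel assignment had a mean Pearson correlation of -0.0406, while arrays 1 and 3 had 0.305 and arrays 2 and 4 had 0.0755. The genes are not independent replicates. Because ratios across the whole array shared so little between channel assignments, each gene below is read with its values in both. Signal strengths were not used here, and precision is limited by the number of arrays.

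PPX1 had the highest mean of the 10 genes, with nearly equal values on arrays 1 to 3 and a lower one on array 4, SPL2 was above 0 on every array but unequally so, and PHO84 was below 0 on every array. No one of the 10 passed the test over all genes (limma, Benjamini-Hochberg adjusted p from 0.14 to 0.97). Over the 5489 genes tested, 0.0911% passed as higher and 0% as lower. At an unadjusted p under 0.05, PPX1 and SPL2 were higher, where 5.37% of all genes were, and PHO84 was lower, where 2.37% of all genes were. Above 0 on all 4 arrays were PPX1, SPL2 and PHO89, against 9.54% of the 5124 genes with a value on each array. Below 0 on all 4 were PHO84 and VTC2, against 8.65%. Nothing is read from these shares, since the genes were picked with these ratios known. The median of the 10 means was -0.06, beside -0.01 over all genes tested, with 4 means above 0 and 6 below.

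**Figure D1:**
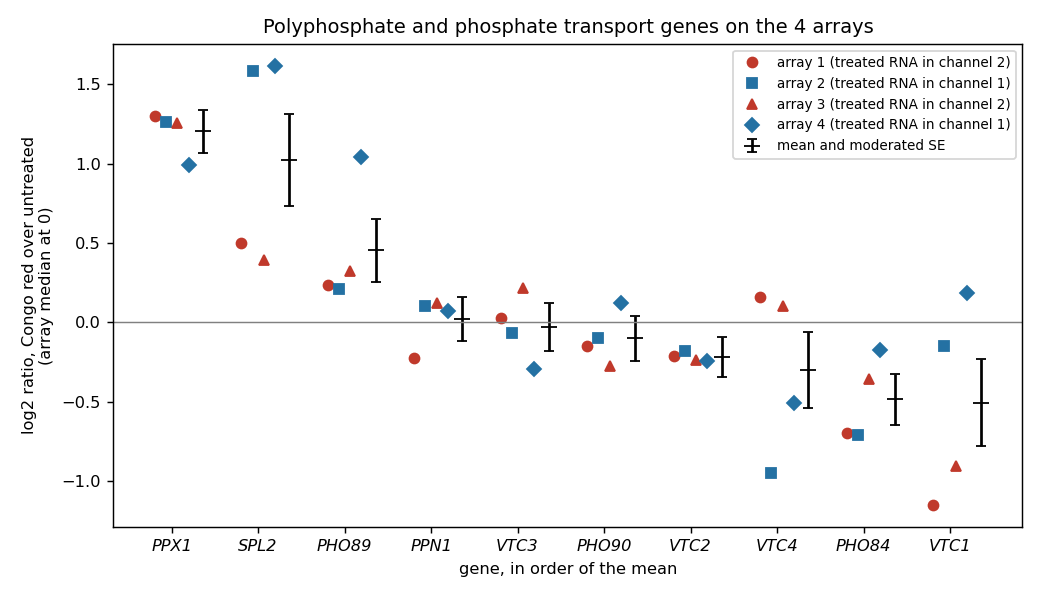
Log2 ratio of Congo red over untreated (vertical axis, array median at 0) of the 10 genes on arrays 1 to 4, in order of their mean. Points are arrays, coloured by the channel of the treated RNA, and black bars are the mean with limma's moderated SE (n = 4). PPX1 stands between 0.99 and 1.30 on all arrays, while SPL2, VTC4 and VTC1 separate most by channel. VTC3 and PHO90 also separate by channel, by less.

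Polyphosphate breakdown comes first because it holds the highest of the 10 means. PPX1 (YHR201C) encodes the exopolyphosphatase of the cytosol, which removes phosphate units from the chain's end. Its log2 ratios were 1.30, 1.26, 1.26 and 0.99 on arrays 1 to 4. Arrays 1 to 3 were nearly equal and array 4 was a little lower. The mean was 1.20 ± 0.14 (SE, n = 4), or 2.31-fold with a 95% interval from 1.81 to 2.94 (limma adjusted p = 0.14). It ranked 154 among 5489 genes by mean and 12 by the size of its unadjusted p. Its 8 single-spot values ran from 0.91 to 1.42. The mean was 1.28 on arrays 1 and 3 and 1.13 on arrays 2 and 4, a difference by channel assignment smaller than in most genes: 17.1% of all genes had a smaller one.

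PPN1 (YDR452W) encodes a polyphosphatase of the vacuole, which can cut within the chain. Its values were -0.22, 0.11, 0.13 and 0.07 on arrays 1 to 4, with array 1 alone below 0. The mean was 0.02 ± 0.14 (SE, n = 4). PPX1 lay above PPN1 on each array, by 0.92 to 1.52, and their ranges over the arrays did not touch. The 95% interval of PPN1, from -0.34 to 0.38, shows how large a change the data leave possible in either direction.

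The genes of polyphosphate synthesis, which encode subunits of the VTC complex, did not share a pattern over the arrays. Differences between them were not tested. All 4 means were below 0, from -0.51 for VTC1 to -0.03 for VTC3, but VTC2 alone was below 0 on every array. VTC4 (YJL012C) encodes the subunit that joins the phosphate units. Its values were 0.16, -0.95, 0.10 and -0.51 on arrays 1 to 4, so it was slightly above 0 where treated RNA was in channel 2 and well below 0 where it was in channel 1. The mean was -0.30 ± 0.24 (SE, n = 4), and it was -0.0824 without array 2 and -0.45 without array 1.

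VTC1 (YER072W) encodes a small membrane subunit of the complex. Its values were -1.15, -0.15, -0.91 and 0.19 on arrays 1 to 4. This is the opposite split to that of VTC4: it was low on arrays 1 and 3 and near 0 on arrays 2 and 4. The mean was -0.51 ± 0.27 (SE, n = 4), the lowest of the 10, and without array 1 it was -0.29. VTC1 minus VTC4 was thus negative on arrays 1 and 3 and positive on arrays 2 and 4. The order of these genes depends on the channel assignment, and the difference of their means, VTC4 higher by 0.21, is small beside the values of VTC4 minus VTC1 on single arrays, which ran from -0.80 to 1.31.

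VTC2 (YFL004W) and VTC3 (YPL019C) encode related subunits that can stand in for each other in the complex. VTC2 was at -0.21, -0.18, -0.24 and -0.24 on arrays 1 to 4. Its SD over the arrays, 0.03, was smaller than that of almost every gene tested (0.0911% had a smaller one), around a small mean of -0.22 ± 0.13 (SE, n = 4). The SE exceeds what this SD alone would give because limma draws each gene's variance toward that of all genes. The 2 spots of VTC2 were 0.21 apart on array 4, while its array values spanned 0.07, so the arrays are less alike than the SD makes them look. VTC3 was at 0.03, -0.06, 0.22 and -0.29, on both sides of 0, with a mean of -0.03 ± 0.15. Adjusted p-values in the limma fit ran from 0.70 to 0.97 over the 4 VTC genes.

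The phosphate carriers were ordered PHO89, PHO90 and PHO84 by mean, and this order held on each of the 4 arrays. PHO84 (YML123C) encodes the high-affinity carrier that brings in phosphate together with protons. Its values were -0.70, -0.71, -0.36 and -0.17 on arrays 1 to 4. All were below 0, lower on arrays 1 and 2 than on arrays 3 and 4, so the difference did not follow the channel. The mean was -0.48 ± 0.16 (SE, n = 4), or 0.715-fold with a 95% interval from 0.536 to 0.954 (limma adjusted p = 0.62). Of all genes, 5.76% had a lower mean. An antisense RNA of PHO84 is known, and whether the spots tell the strands apart is not given in the sources used here.

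PHO89 (YBR296C) encodes a high-affinity carrier that uses sodium in place of protons and works best at alkaline pH. Its values were 0.24, 0.21, 0.33 and 1.04 on arrays 1 to 4. Arrays 1 to 3 were close together and array 4 stood well above them. The mean was 0.45 ± 0.20 (SE, n = 4), and without array 4 it was 0.26. PHO89 exceeded PHO84 on each array by 0.68 to 1.21, with a mean difference of 0.94.

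PHO90 (YJL198W) encodes a low-affinity carrier of the plasma membrane, used when phosphate is plentiful. Its values were -0.15, -0.10, -0.27 and 0.12 on arrays 1 to 4, near 0 throughout, with array 4 alone above 0. The mean was -0.10 ± 0.14 (SE, n = 4), and it was -0.0435 without array 3 and -0.17 without array 4. PHO90 has the close relatives PHO87 and PHO91, so their spots may share signal.

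SPL2 (YHR136C) encodes a small protein that restrains low-affinity phosphate transport. Its log2 ratios were 0.50, 1.59, 0.40 and 1.62 on arrays 1 to 4. All were above 0, and the arrays fell into pairs by channel assignment: arrays 2 and 4 were nearly equal and high, arrays 1 and 3 nearly equal and lower. The mean was 1.02 ± 0.29 (SE, n = 4), or 2.03-fold with a 95% interval from 1.22 to 3.40 (limma adjusted p = 0.56). This SE and interval count the split by channel as spread. With a channel term in the limma model, the mean was the same with an SE of 0.10 (adjusted p = 0.18). As ratios, SPL2 and PHO84 lay on opposite sides of 0 on each array, with SPL2 higher by 0.75 to 2.29, although both are induced by Pho4 when phosphate is scarce.

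The difference between channel assignments was, among the 10 genes, largest for SPL2, VTC1 and VTC4. Arrays 1 and 3 minus arrays 2 and 4 gave -1.15 ± 0.20 (SE) for SPL2, -1.05 ± 0.25 for VTC1 and 0.86 ± 0.25 for VTC4. In a limma model with a channel term, none of these differences passed over all genes (adjusted p of 0.25, 0.26 and 0.28). In that model the SE of the mean was 0.10 for SPL2, 0.12 for VTC1 and 0.13 for VTC4 (limma adjusted p of 0.18, 0.34 and 0.42). Without the term, the SE of these means counts the split as spread. The other 7 genes had differences between -0.34 for PHO89 and 0.30 for VTC3. Over all genes the central 90% of such differences ran from -1.07 to 1.97, so the difference of SPL2 lay just below it and that of VTC1 at its lower edge. Were the ratios to run by channel rather than by treatment, with arrays 2 and 4 turned, SPL2 would have a mean of -0.58, PPX1 of 0.08, PHO84 of -0.04 and VTC1 of -0.52.

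**Figure D2:**
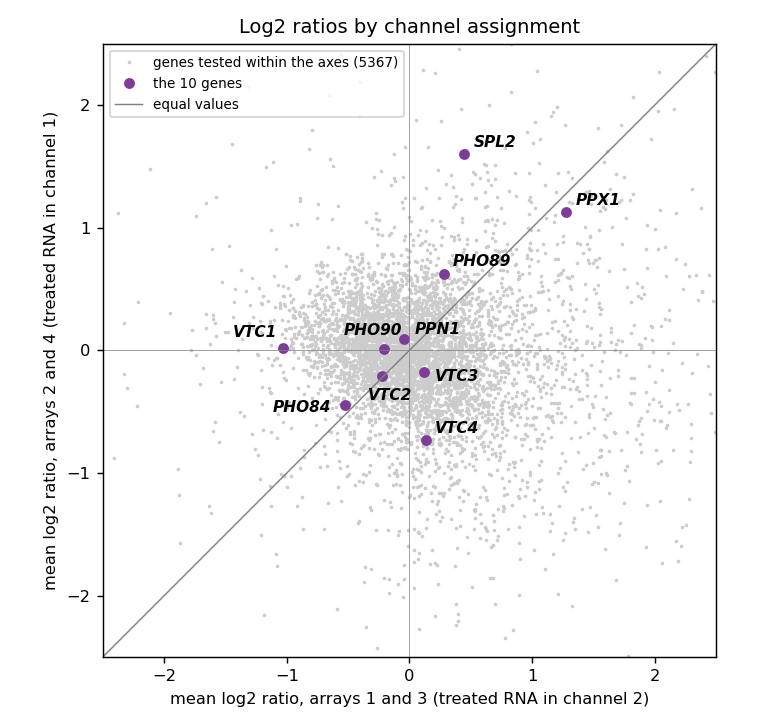
Mean log2 ratio on arrays 1 and 3 (horizontal) against arrays 2 and 4 (vertical), with 1 grey point for each gene tested, 122 of them beyond the axes, and the 10 genes in purple. VTC2, PHO84, PPN1 and PPX1 lie near the line of equal values, while SPL2, VTC1 and VTC4 lie away from it.

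The 2 spots of a gene were close to each other on the same array, including in genes whose arrays differed. The median gap between the spots of the 10 genes was from 0.08 on array 1 to 0.16 on array 2, beside 0.16 and 0.25 over all genes. The spots of VTC1 were at most 0.22 apart on any array, while its arrays spanned 1.34. The spots of VTC4 were at most 0.35 apart and its arrays spanned 1.11. SPL2 had the widest gap, with spots at 0.14 and 0.65 on array 3, and its arrays spanned 1.22. The differences between arrays in these genes were thus larger than the differences between spots within an array. In VTC2 the reverse held, with spots up to 0.21 apart and arrays that spanned 0.07.

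**Figure D3:**
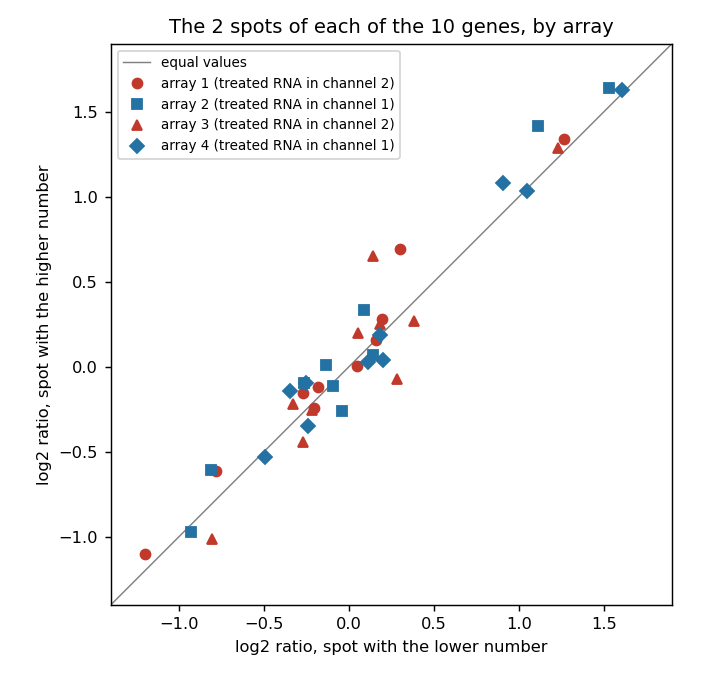
Log2 ratio of the spot with the lower number (horizontal) against the neighbouring spot of the same gene (vertical), for 10 genes on 4 arrays, with the array and its channel assignment given by marker and colour. The points follow the line of equal values, and the widest gap is 0.51, for SPL2 on array 3.

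By mean the order of the 10 genes was PPX1, SPL2, PHO89, PPN1, VTC3, PHO90, VTC2, VTC4, PHO84 and VTC1. Neighbours in this order had overlapping ranges over the arrays, other than PHO89 and PPN1, where the lowest value of PHO89, 0.21, was above the highest of PPN1, 0.13. Of the 45 pairs of genes, 24 kept the same order on all 4 arrays. All of these included PPX1, SPL2 or PHO89, other than PPN1 over PHO84 and PHO90 over PHO84. The genes were picked with these ratios known and no share over pairs of other genes was taken, so nothing is read from the count. PPX1, SPL2 and PHO89 took the first 3 places on each array, in changing order. The 7 others changed places, with VTC1 last on arrays 1 and 3 and in place 4 on array 4.

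Other genes of phosphate metabolism were counted from lists made with earlier results of these data known. None of their 29 members passed over all genes in the limma fit (adjusted p from 0.16 to 0.98). In the mean 11 were above 0 and 18 below, with a median of -0.12, where 2635 of all 5489 genes were above 0 and 2854 below. Of 3 other polyphosphate genes, 1 was higher at an unadjusted p under 0.05, beside 5.37% of all genes. This was PPN2, of a vacuolar enzyme that cuts polyphosphate, at 0.34, 0.63, 0.57 and 0.25 on arrays 1 to 4 and a mean of 0.45 ± 0.14 (SE, n = 4). VTC5, an additional VTC subunit, had a mean of -0.60 ± 0.33 and was far lower on array 2, at -1.77, than elsewhere. DDP1, which also acts on inositol pyrophosphates, had a mean of -0.22 ± 0.13.

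The other 7 genes of phosphate carriers and their packaging had means from -0.14 to 0.21, and none was past an unadjusted p of 0.05. Single arrays spread further. Singled out for this, SYG1 ran from -1.73 to 0.73 (mean -0.04 ± 0.46) and MIR1 from -0.49 to 0.90 (mean 0.10 ± 0.26). PHO91, of a vacuolar exporter, was at 0.21 ± 0.18 (SE, n = 4). PHO86, whose product lets Pho84 leave the endoplasmic reticulum, was at -0.14 ± 0.15. PIC2, of a mitochondrial carrier, was at -0.11 ± 0.18.

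Of 8 phosphate signalling genes, 4 had a mean above 0 and 4 below, and PHO4 alone was past an unadjusted p of 0.05, on the lower side, where 2.37% of all genes were. PHO4, of the transcription factor of the regulon, was at -0.31, -0.42, -0.51 and -0.53 on arrays 1 to 4, below 0 on each, with a mean of -0.44 ± 0.13 (SE, n = 4, limma adjusted p = 0.57). VIP1, of a kinase that makes inositol pyrophosphates, was at -0.68 ± 0.27, and PHO2, of the partner factor of Pho4, was at -0.30 ± 0.17. Singled out after its values were seen, KCS1, of another kinase that makes inositol pyrophosphates, had the highest mean of the list at 1.34 ± 0.75 (SE, n = 3), with 1.44, 3.09 and -0.50 on arrays 1, 2 and 4. PHO81, of the inhibitor of the Pho80-Pho85 kinase, likewise singled out, was at 0.23 ± 0.42. All 7 phosphatase genes had a mean below 0, with a list median of -0.77, and 5 were lower at an unadjusted p under 0.05, beside 2.37% of all genes. PHO12, PHO11 and PHO5, of secreted acid phosphatases, had the smallest p, with means of -1.13, -1.03 and -0.83 and those of PHO11 and PHO12 at -0.88 or lower on every array. PHO11 and PHO12 are nearly identical and related to PHO5, so their spots may share signal. Also among the 5 were PHO3, at -0.77 ± 0.15, and PHO8, at -0.53 ± 0.15. Where spots share signal, the 5 are not separate results. Of 4 other phosphate-starvation genes, 2 had a mean above 0 and 2 below, and PHM6 alone was past an unadjusted p of 0.05, on the lower side (2.37% of all genes). PHM6 was at -0.37 ± 0.14 and GDE1, of an enzyme that breaks down glycerophosphocholine, was at 0.34 ± 0.14. PHM7 was at -0.82 ± 0.67, with array values from -2.31 to 1.59.

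**Figure D4:**
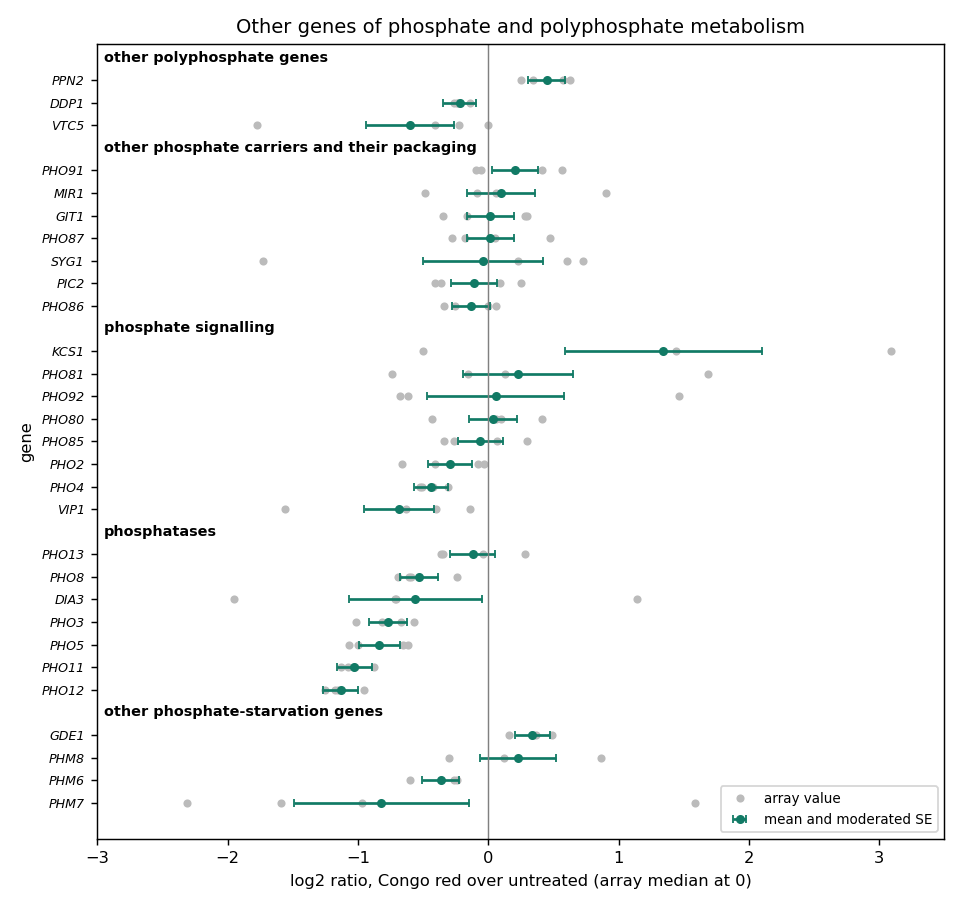
Log2 ratio of Congo red over untreated (horizontal axis, array median at 0) of 29 other genes of phosphate and polyphosphate metabolism in 5 lists, with grey points for arrays and green points for the mean with limma's moderated SE (n = 4, or 3 where an array has no value). All 7 phosphatases have a mean below 0, while the means of the carriers lie around 0.

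By the root mean square difference over the 4 arrays, among 5124 genes with a value on each, the pattern of SPL2 was nearest to those of ICT1 (0.21), FKS1 (0.25) and NFG1 (0.26). FKS1 encodes a catalytic subunit of glucan synthase, and its values were 0.62, 1.26, 0.62 and 1.33. Like SPL2, these genes had their higher values where treated RNA was in channel 1. They were chosen by these same values, so the shared split is not a separate result. The pattern of PHO84 was nearest to those of ADH3 (0.09), ILV5 (0.10) and LSP1 (0.10). ILV5, an enzyme gene of branched-chain amino acid synthesis, had values of -0.63, -0.80, -0.45 and -0.05. The nearest genes to SPL2 were further away than those of PHO84, but SPL2 also varied more over the arrays (SD 0.67) than PHO84 did (SD 0.26). Likeness over so few arrays is a description alone.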

How the data were processed

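Transcript ratios between BY4741 cells with and without Congo red were taken from 4 arrays, with groups and channels from the labels. The authors deposited 1 log2 ratio per spot, a unit read from the values themselves. Of background correction, normalization, probes and ratio direction nothing is given in the sources used here. The deposited medians, 0.31, 0.02, -0.46 and 0.37 for arrays 1 to 4, show no centring on the median of all spots. From 11609 to 12586 of the 12800 spots had a value, and 36 spot values lay at an upper limit, none of them in the 10 genes.

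The gene annotation of the platform dates from long ago and gave 1 symbol for 11138 spots and none for 1662, and 11128 were found in the RefSeq gene table (assembly R64), which changed 0 symbols. Gene coordinates served only to find the neighbours of the 10 genes on the chromosome, and no sequences were used here. Each array was centred on its median, the spots of a gene were averaged, and the 5489 genes that had 3 or more array values were tested against 0 with limma 3.58.1 in R 4.3.3 (lmFit and eBayes, two-sided, Benjamini-Hochberg, threshold 0.05). The script was tested on simulated data. SE is limma's moderated standard error. The 10 genes, the lists and the tests were chosen with earlier results of these data known. Named from the other lists were up to 3 genes with the smallest p, and for SPL2 and PHO84 the 3 nearest genes. KCS1, PHO81, PHO3, PHO8, SYG1 and MIR1 were added after their values were seen. Alternatives changed centring, scaling, normalization, channel, replication, missing values, moderation, the tested fold, spots, arrays and direction.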

Additional observations from a re-analysis of the deposited data

Results flagged for a closer look

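The gap between an array and the nearest other was tested, by a rule that flags about 1 in 20 groups by chance. On 1 array, 3 of the 10 genes stood apart by this rule. These were PPX1 on array 4, at 0.99 where the other arrays were at 1.26 to 1.30, PHO89 on array 4, at 1.04 where the others were at most 0.33, and PPN1 on array 1, at -0.22 where the others were from 0.07 to 0.13. Without that array the means were 1.28 for PPX1, 0.26 for PHO89 and 0.10 for PPN1. The rule was run on the 10 genes alone, so no share over all genes stands beside this count. For PPX1 the gap is small, since its 2 spots were 0.30 apart on array 2 and its arrays spanned 0.31.

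VTC3 and VTC4 were above 0 on both arrays with treated RNA in channel 2 and below 0 on both with it in channel 1. The difference between channel assignments was 0.30 for VTC3 and 0.86 for VTC4. In the limma model with a channel term, the adjusted p was 0.49 and 0.28, so neither passed.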

How the results depend on the processing

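None of the 10 genes passed the limma threshold in any of the 18 alternative settings, with a lowest adjusted p of 0.054 for PPX1 when spot pairs more than 1 apart were left out. Over all genes, the 5 called higher became 0 with arrays averaged in pairs either way, with centring within runs of 400 spots, with a channel term, with a common median absolute deviation, with quantile normalization, with arrays 2 and 4 turned, with a test against a fold change of 1.5, and without any 1 array (range 0 to 0), and 11 without spot pairs more than 1 apart. The cause was not tested. The number called lower was 0 in each. Of 160 means of single genes, 150 kept their direction and their side of the threshold and 10 reversed. With arrays 2 and 4 turned, PHO89 was at -0.17, PPN1 at -0.0685, SPL2 at -0.58, VTC3 at 0.15 and VTC4 at 0.43. PPN1 was at -0.0502 with centring within runs and ran from -0.0141 to 0.10 without single arrays. VTC3 was at 0.0307 without centring and ran from -0.11 to 0.0598 without single arrays. Apart from the turned sign, PPX1 ran from 1.17 to 1.32, SPL2 from 0.83 to 1.31, PHO89 from 0.26 to 0.67, PHO84 from -0.59 to -0.41 and VTC1 from -0.74 to -0.29. No paired analysis was possible because the arrays form 1 group, and each ratio already pairs treated with untreated RNA. Without signal strengths, dim spots could not be told from bright ones.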

Other observations

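The genes beside each of the 10 on its chromosome were taken in RefSeq order. Of 20 neighbours, 17 were tested, and their means ran from -0.46 to 0.35. None passed over all genes (limma adjusted p of 0.59 and above), where 0.0911% of all genes passed as higher and 0% as lower. PPX1 stood at a mean of 1.20 between RPN10, a proteasome subunit gene, at -0.14 ± 0.21 (SE, n = 4) and SMN1 at -0.46 ± 0.14. SMN1 was at -0.68, -0.50, -0.30 and -0.34 on arrays 1 to 4, below 0 on each where PPX1 was above 0 on each. SPL2, at 1.02, stood between YCK1, a casein kinase gene, at -0.20 ± 0.19 and ARO9, of aromatic amino acid breakdown, at -0.04 ± 0.18. These neighbours were looked at after the values of the 10 genes had been seen, and no explanation was tested.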
